A study of Mus musculus with 4 samples.

Results

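Itgax or Trem2 positive macrophages were selected on measured UMIs, as cells with at least 1 UMI (unique molecular identifier, a counted RNA molecule) of Lyz2, at least 1 of the complement genes C1qa, C1qb and C1qc together, at least 1 of Itgax or Trem2, and none of Folr2, Mki67, Cd3e or Ms4a1. The rule found 81 cells among 860 macrophages and 21249 kept cells of 26654 deposited. The cells came from ChATBAC-eGFP male mice, which carry eGFP under the regulatory sequences of Chat on a bacterial artificial chromosome. Mice 5 weeks old were housed at 30 °C (thermoneutrality) for 3 weeks, after which one group stayed at 30 °C and the other spent 24 h at room temperature and then 4 h at 4 °C, so that mice were about 8 weeks old at harvest. Live single eGFP+ cells of the stromal vascular fraction of inguinal white adipose tissue were sorted and sequenced on the 10x platform in 4 libraries, 2 biological replicates per temperature, each pooled from 4 mice. The day at room temperature was not shared by the mice kept at 30 °C, so its effect and that of the cold cannot be told apart, and in every group the cells stand for those with an active reporter, not for all macrophages of the fat pad.

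Itgax encodes CD11c, an integrin of myeloid cells, and Trem2 encodes a receptor for lipids and cell debris that signals through the adaptor Tyrobp. In adipose tissue, macrophages that express both are known from crown-like structures around dying adipocytes, where they take up and digest lipid and remodel matrix. Folr2, a folate receptor, marks the resident perivascular macrophages with which they were compared. On mm10, Itgax lies on chromosome 7 from 128129547 to 128150657 (plus strand), Trem2 on chromosome 17 from 48346401 to 48354147 (plus strand) and Folr2 on chromosome 7 from 101839988 to 101857194 (minus strand).

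The 81 cells were 10 and 15 cells in replicates 1 and 2 at 30 °C and 42 and 14 cells at 4 °C. Their summed UMIs were 137730, 185688, 506105 and 138428 in the same order, so replicate 1 at 4 °C held more than the other libraries. Median depth per cell was 11738.5, 12740, 12034.5 and 7078.5 UMIs, replicate 2 at 4 °C being the shallowest. Folr2 macrophages, the 552 cells with a Folr2 UMI and none of Itgax or Trem2 that otherwise met the same rule, had medians of 8817, 8650, 7672 and 8249 UMIs. Doublet scoring marked 531 kept cells and 0 of the 81. Among all pairs of libraries 51 kept cells shared a barcode, 0 of them between 2 of the 81 cells.

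All 81 cells carried at least 1 UMI of the 10 macrophage genes listed for this check (Adgre1, Csf1r and others), with only 1 in a cell of replicate 1 at 30 °C. Their summed level was 3550, 4405, 4027 and 4739 CPM (counts per 1e6 UMIs of these cells, summed per library). In Folr2 macrophages it was 7190, 6503, 5653 and 5783 CPM, higher in every library. Only 5 cells had no UMI of either Adgre1 or Csf1r. Genes of other cell types were present at low levels. The 8 B cell genes, led by Ighm with 229 UMIs, summed to 319, 248, 290 and 448 CPM, and 77 cells had at least 1 such UMI. The 7 T cell genes summed to 58.1, 21.5, 41.5 and 43.3 CPM, with Cd2 the most abundant and Cd247 at 0. The 9 dendritic cell genes summed to 457, 113, 196 and 108 CPM, with Batf3 the most abundant and Xcr1 at 0. Of the 81 cells, 48 had at least 1 UMI of these dendritic cell genes and 14 had 5 or more. Replicate 1 at 30 °C stood highest for these genes. In that library 1 cell, with 1 C1q UMI, held 23 UMIs of Fscn1, a gene of mature dendritic cells. The 11 monocyte genes summed to 407, 953, 652 and 506 CPM, above the B cell genes in every library. Of them, Ccr2 was the most abundant and Chil3, Treml4 and Vcan were at 0. Col1a1, Lum and Pdgfra of the 6 stromal genes, Lep of the 6 adipocyte genes and S100a9 of the 3 neutrophil genes were also at 0. The part of this RNA in the results was not tested.

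The gate admitted cells on very little signal, and the level of the markers moved with it. Of the 81 cells, 27 had exactly 1 UMI of Itgax and Trem2 together, 18 had 2 or 3 and 36 had 4 or more. Mmp12, the macrophage elastase, was found in 18.5% of the first, 16.7% of the second and 58.3% of the third. Just outside the gate were 114 macrophages with 0 UMIs of Itgax, Trem2 and Folr2, of which 5.26% had a Mmp12 UMI. Their median depth was 6407.5 UMIs, against 7943 in cells with 1 UMI and 15363 in cells with 4 or more, so the groups also differed in how much could be detected. In addition, 8 of the 81 had fewer than 3 C1q UMIs and 4 fewer than 3 Lyz2 UMIs.

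Itgax, 1 of the genes that chose the cells, made up 123, 194, 308 and 224 CPM in replicates 1 and 2 at 30 °C and at 4 °C. Trem2 made up 232, 118, 263 and 412 CPM. Trem2 alone admitted 32 cells, Itgax alone 30, and 19 cells had both. Over all libraries together, Mmp12 was concentrated in those with both. It was found in 14 of these 19 cells (73.7%), in 6 of 32 Trem2-only cells (18.8%) and in 9 of 30 Itgax-only cells (30.0%). The 19 cells held 90.9% of all Mmp12 UMIs, 68.4% of Cd9, 59.8% of Lgals3, 63.7% of Cd36 and 59.1% of Lpl. The 5 highest of the 81 cells alone held 77.6% of the Mmp12 UMIs. Replicate 2 at 30 °C went the other way, with 0 Mmp12 UMIs in cells with both, 29 in Itgax-only and 43 in Trem2-only cells. The median depth of the 19 cells was 15317 UMIs, above 13791 in Itgax-only and 9891.5 in Trem2-only cells. The 18 cells with 10 or more Mmp12 UMIs all had 10 or more UMIs of Lgals3, and 17 had as many of Lpl, against 25 and 24 of the other 63 cells. Median depth was 15363 UMIs in the 18 cells and 10928 in the other 63, so 10 UMIs were easier to reach in the former. C1q was lower in the 18 cells, with a median of 22.5 UMIs against 99. These 18 cells were 2 and 2 at 30 °C and 10 and 4 at 4 °C. A single cell held 606 of the 863 Mmp12 UMIs in replicate 1 at 30 °C.

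**Figure D1:**
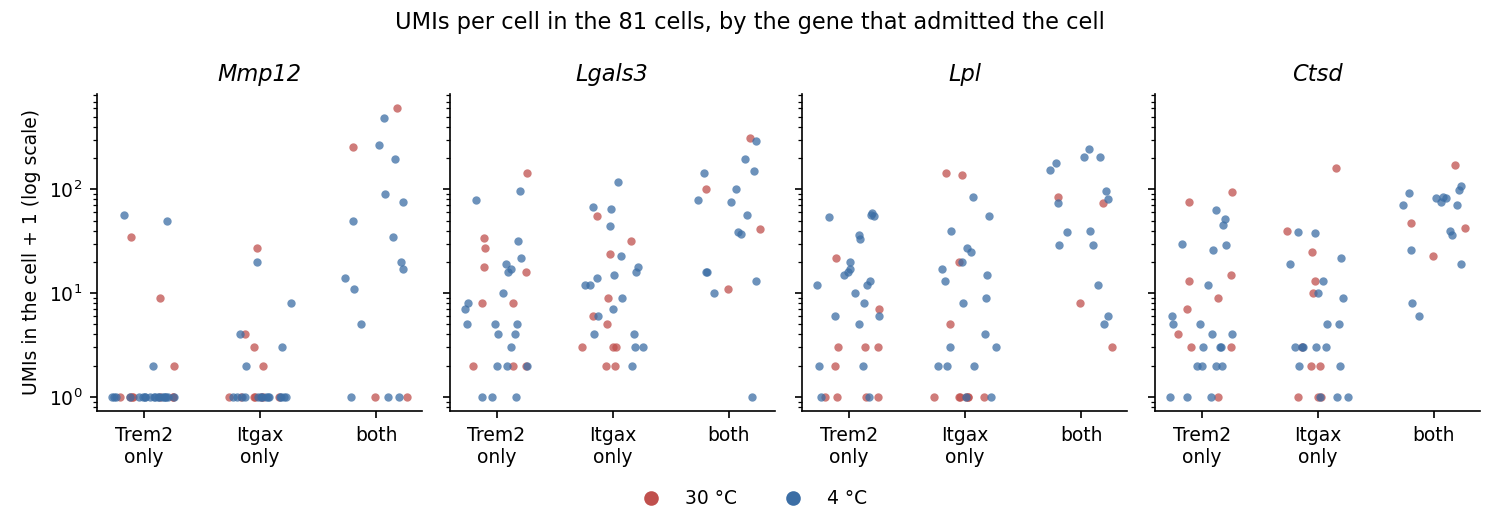
UMIs of Mmp12, Lgals3, Lpl and Ctsd in each of the 81 cells (1 point a cell, plus 1, log axis), divided into cells with Trem2 only, Itgax only or both, and coloured by temperature. Over all libraries together, cells with both genes held most Mmp12, including the highest cell with 606 UMIs.

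Cells admitted by Trem2 alone and by Itgax alone differed in a small set of genes. The sums came from 3, 7, 17 and 5 Trem2-only cells and from 5, 6, 14 and 5 Itgax-only cells in replicates 1 and 2 at 30 °C and at 4 °C. Of 924 genes tested over the 4 libraries, 10 (1.08%) passed an adjusted p of 0.05 in edgeR with library as a factor, 5 in each direction, and 126 had an unadjusted p under 0.05. Higher in Trem2-only cells were the platelet factor 4 gene Pf4 (log2 fold change 2.84, SE 0.32, adjusted p = 0.00169), the complement receptor C3ar1 (1.73), the transcription factor Cebpb (1.34), the protease inhibitor Cst3 (1.20) and Fos (1.17). Pf4 stood at 421, 3328, 1805 and 1984 CPM in Trem2-only and at 33.5, 295, 392 and 361 CPM in Itgax-only cells, higher in the former in every library. Higher in Itgax-only cells were complement C3, the chemokine Ccl5 (-5.33), the DNase gene Dnase1l3 (-4.87), Tspan3 (-2.43) and Apobec3 (-1.84). C3 had 160 UMIs in Itgax-only and 2 in Trem2-only cells, a ratio of 70.2 with a 95% counting interval of 19.1 to 585, which covers counting error only. Dnase1l3 was at 0, 0, 27.3 and 40.5 CPM in Trem2-only and at 218, 528, 684 and 493 CPM in Itgax-only cells, higher in the latter in every library. A single direction in every library was found for 21.3% of all genes tested. The dendritic cell genes were at 353 CPM in Itgax-only cells, 112 CPM in Trem2-only cells and 117 CPM in cells with both. Within libraries they were higher in Itgax-only cells in 3 of 4 (972 against 0 CPM and 73.9 against 187 CPM at 30 °C, 355 against 120 and 152 against 0 CPM at 4 °C), and with cells with a UMI of 6 dendritic cell genes left out 4 of the 10 genes could be tested and 1 kept its call, while Cebpb (1.00), Cst3 (0.97) and Fos (0.76) did not. With cells with further B and T cell UMIs left out, 3 could be tested and 0 kept their calls, with Cebpb at 0.73, Cst3 at 1.03 and Fos at 0.20. Under either filter, the genes that could be tested were all among those higher in Trem2-only cells. The genes higher in Itgax-only cells could thus not be checked with these cells left out. Without replicate 1 at 4 °C only 1 gene passed, Pf4, whereas without replicate 1 at 30 °C or replicate 2 at 4 °C 26 did. Without replicate 2 at 30 °C 8 genes passed, and C3ar1 (1.65), Cebpb (1.19), Cst3 (1.08), Fos (1.20) and Apobec3 (-1.89) did not. The same genes did not pass with at least 3 UMIs of Lyz2 and of C1q required (1.17, 1.31, 1.12, 0.99 and -1.94). With no filter on low counts C3ar1 (1.62), Cebpb (1.22), Cst3 (1.06) and Fos (1.04) did not pass. In DESeq2 C3ar1 (1.68) and Apobec3 (-1.82) did not. The fitted value of Ccl5 was -4.37 without replicate 1 at 30 °C. That of C3, which rests on 2 UMIs, moved from -5.67 to -8.43 without replicate 2 at 4 °C, to -4.96 without replicate 2 at 30 °C and to -4.78 without replicate 1 at 4 °C.

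Of the markers that go with Itgax and Trem2, Lgals3 was found in 95.1% of the 81 cells, Cd9 in 49.4% and Mmp12 in 35.8%. Lgals3 encodes galectin 3 and Cd9 a tetraspanin. In Folr2 macrophages the shares were 67.6%, 2.54% and 0.543%. In 8609 B cells, which served as a measure of free RNA, they were 9.23%, 37.4% and 0.337%, at a median depth of 8380 UMIs against 11943 in the 81 cells and 8190.5 in Folr2 macrophages. B cells express Cd9, so its share there is no measure of free RNA. With every cell reduced to 3282 UMIs, which left 73 of the 81 cells, the shares of Lgals3, Cd9 and Mmp12 were 84.9%, 32.9% and 30.1%, against 50.1%, 1.19% and 0.198% in Folr2 macrophages. Fn1, the fibronectin gene, was found in 34.6% of the 81 cells, 2.36% of Folr2 macrophages and 0.395% of B cells. The mannose receptor gene Mrc1 was found in 77.8% of the 81 cells and 99.1% of Folr2 macrophages. The markers were not limited to the gate. Among 113 macrophages left out because they had Folr2 beside Itgax or Trem2, 21.2% had Mmp12, 30.1% Cd9 and 87.6% Lgals3.

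**Figure D2:**
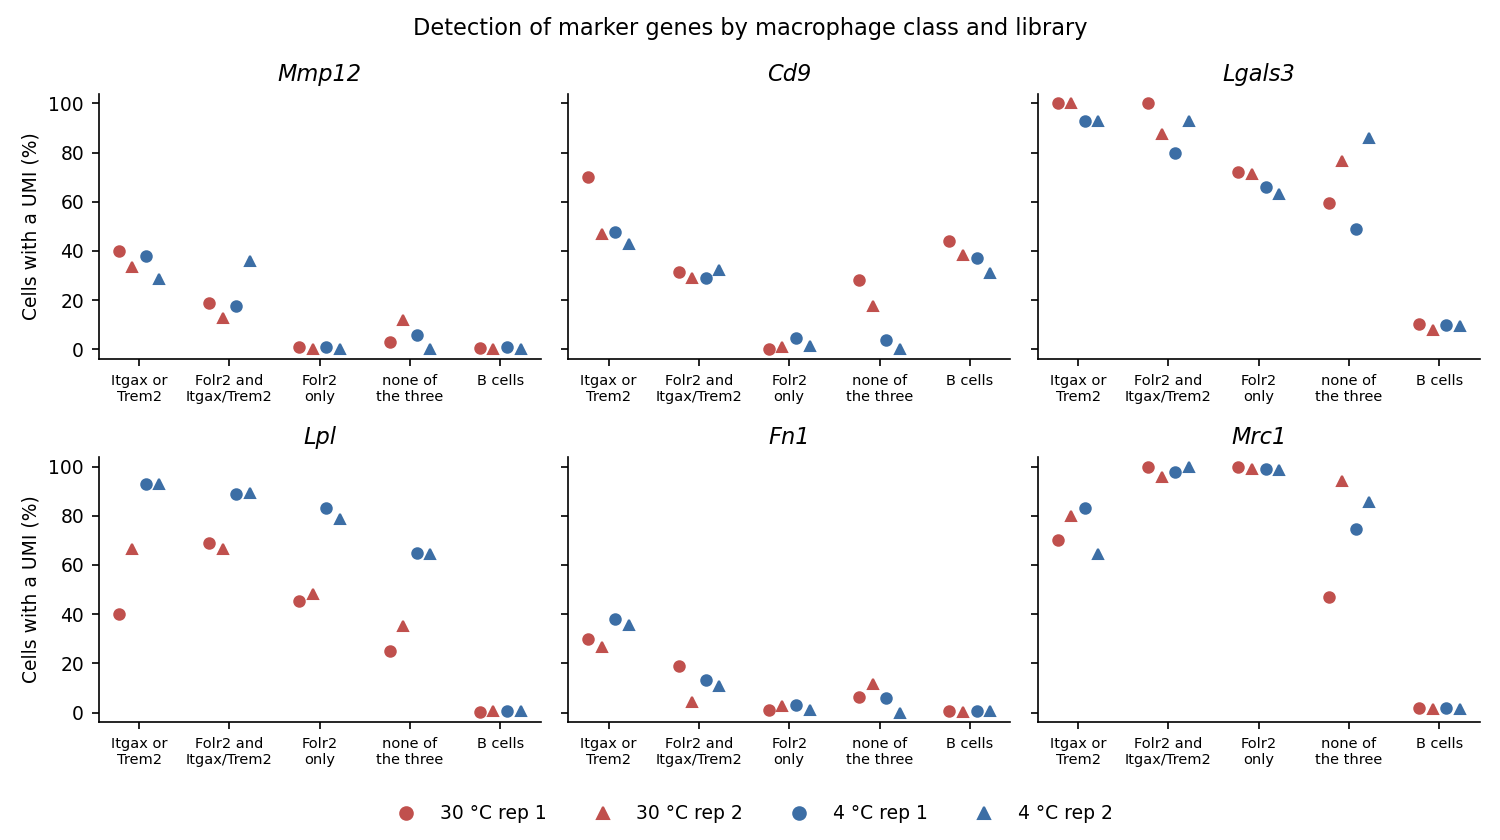
Share of cells with at least 1 UMI of 6 genes in each library, for the Itgax or Trem2 positive macrophages, macrophages with Folr2 beside Itgax or Trem2, Folr2 only, none of the 3 genes, and B cells. Mmp12 and Fn1 were found in more of the 81 cells than of Folr2-only macrophages in all 4 libraries, and Lpl was found in more cells at 4 °C than at 30 °C in every macrophage class.

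The design asks whether these cells were more frequent after cold. They made up 0.193% (95% Clopper-Pearson interval 0.0924 to 0.354) and 0.278% (0.156 to 0.459) of kept cells in the replicates at 30 °C. After cold the shares were 0.789% (0.569 to 1.06) and 0.262% (0.143 to 0.439). The second cold library fell within the range of the 30 °C libraries, so the groups overlapped. This depended on the filter, since under 4 of 6 other cell filters both cold libraries were higher (with a mitochondrial limit of 15%, the lower cold library had 0.258% and the higher 30 °C library 0.244%). The means were 0.236% ± 0.0606 (SD, n = 2 libraries) without cold and 0.525% ± 0.372 with it (two-sided exact permutation p = 0.667, where 0.33 is the smallest possible). The difference of 0.290 percentage points became 0.0264 without replicate 1 at 4 °C. As a share of macrophages they made up 6.62% (3.22 to 11.8) and 9.15% (5.21 to 14.6) of the 30 °C macrophages. The cold libraries gave 10.4% (7.58 to 13.8) and 10.0% (5.58 to 16.2). Both libraries at 4 °C lay above both at 30 °C, and the means were 7.88% ± 1.78 (SD, n = 2) and 10.2% ± 0.262 (exact permutation p = 0.33, the smallest these libraries can give). The intervals of all 4 libraries overlapped, and they cover counting error only.

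**Figure D3:**
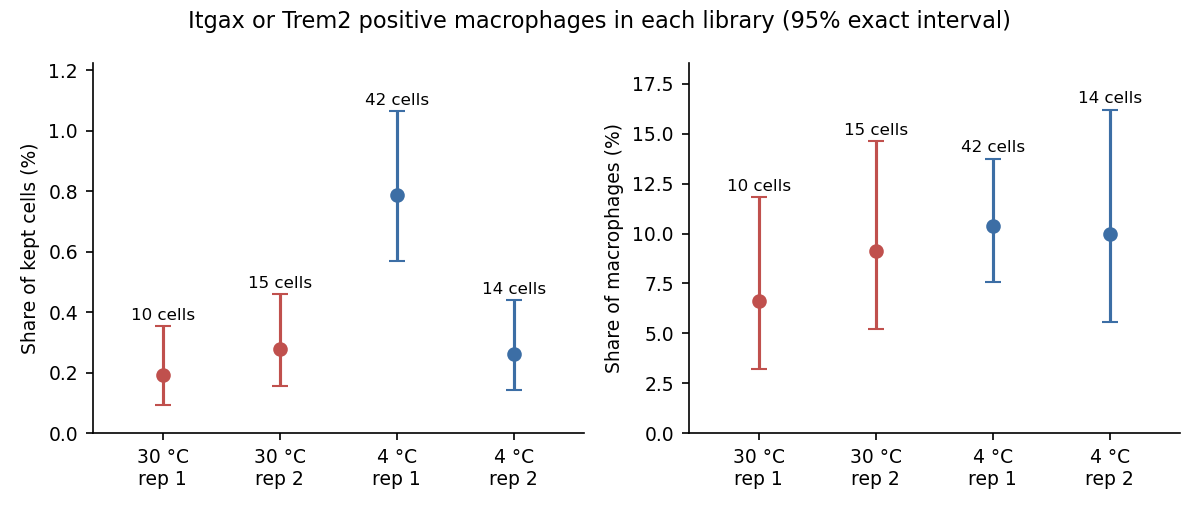
Share of kept cells (left) and of macrophages (right) that were Itgax or Trem2 positive in each library, in percent, with exact 95% intervals and cell numbers. Replicate 1 at 4 °C stood apart on the left with 0.789%, and on the right all intervals overlapped.

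Against Folr2 macrophages of the same libraries, Itgax or Trem2 positive macrophages had more lipid genes higher than lower (12 against 1) and more lysosomal genes higher than lower (10 against 1). Matrix genes went both ways (12 higher and 8 lower), and the 14 resident macrophage genes tested were lower. Of 6370 genes tested, with the genes of the gate left out, 858 (13.5%) passed an adjusted p of 0.05 in edgeR with library as a factor, 459 (7.21%) higher and 399 (6.26%) lower, and the median log2 fold change was -0.02. Cells were divided by their own UMIs of Itgax, Trem2 and Folr2, so the comparison describes that division. Positive values are higher in Itgax or Trem2 positive macrophages.

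Mmp12 (chromosome 9, 7344381 to 7369499) was the gene with the largest difference among those higher. It was at 6266, 388, 2448 and 1120 CPM in replicates 1 and 2 at 30 °C and at 4 °C, and at 1.18, 0, 0.939 and 0 CPM in Folr2 macrophages. With 2329 UMIs against 3, it was 3704-fold higher (95% counting interval 1266 to 17972, adjusted p = 3.5e-12 from edgeR). The interval pools UMIs over libraries and covers counting error only, as do those of the ratios below. Fn1 (chromosome 1, 71585520 to 71653200) was at 929, 242, 1138 and 722 CPM, against 1.18, 3.06, 13.6 and 1.52 CPM in Folr2 macrophages. Its log2 fold change was 7.14 (SE 0.34, adjusted p = 2.9e-08), and 8.10 without replicate 1 at 4 °C. For both genes every library was higher in the 81 cells, and 34.7% of all genes tested had 1 direction in every library. Replicate 2 at 30 °C was the lowest of the 4.

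The other genes among the 10 largest rises were Sh2d1b1, an adaptor of SLAM receptors, Igf2r, the receptor that carries mannose 6-phosphate enzymes to lysosomes, the ubiquitin ligase Rnf128, Cd9, the G protein subunit Gngt2, the ribonuclease Ear2, the transcription factor Bhlhe40 and the lysozyme Lyz1. Sh2d1b1 had 48 UMIs against 2, a ratio of 114 (30.0 to 973), and Rnf128 had 56 against 3, a ratio of 89.1 (28.9 to 445). Cd9 was at 160, 172, 261 and 210 CPM, against 0, 1.02, 7.98 and 1.52 CPM in Folr2 macrophages (log2 fold change 5.92, SE 0.38). The log2 fold changes of Igf2r, Gngt2, Ear2, Bhlhe40 and Lyz1 were 6.36, 5.49, 5.05, 4.74 and 4.59. Without replicate 1 at 4 °C they were 7.5 for Cd9, 6.83 for Ear2 and 4.02 for Bhlhe40, which reached 5.74 when replicate 1 at 30 °C was left out. With no upper limit on the genes of a cell, the values were lower for Cd9 (4.69) and Fn1 (6.46). Lyz1 is a close copy of Lyz2 and Ear2 belongs to a family of like genes, so reads may have been split between copies and both values are uncertain.

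The 10 largest falls by fitted value were those of the endothelin receptor Ednrb, complement C6, the lectins Cd209g, Cd209f, Cd209d and Cd209b, A4galt, Cpne8, the hyaluronan receptor Lyve1 and Egfr. Ednrb, C6, A4galt and Cpne8 had 0 UMIs in the 81 cells, and the first 3 had 610, 253 and 123 in Folr2 macrophages. With a floor of 3 counts over the 81 cells, all 4 were lower, at least 42.6-fold, 17.7-fold, 8.59-fold and 7.27-fold. Their place among the 10 rests on fitted values against a group at 0, and the bounds of C6, A4galt and Cpne8 are below the measured fall of Cbr2 (-4.95 on the log2 scale). Lyve1 had 5 UMIs against 2441, and Cd209f 10 against 3549 (log2 fold changes -6.38 and -6.31). Leaving out replicate 2 at 30 °C gave -7.76 for Lyve1, and leaving out replicate 1 at 4 °C gave -11.29 for Cd209f. Cd209g had 2 UMIs against 1664, a ratio of 174 (48.2 to 1441), Cd209d 2 against 669, a ratio of 70.1 (19.3 to 580), Cd209b 3 against 601, a ratio of 42.0 (14.3 to 204), and Egfr 1 against 252, a ratio of 52.8 (9.40 to 2095). Without replicate 1 at 4 °C the log2 fold changes were -10.00 for Cd209g, -8.25 for Egfr, -9.05 for Cd209b, -4.82 for Cd209d and -8.66 for Ednrb, again fitted on few or no UMIs. The Cd209 genes are near copies of each other, so their counts may have been split.

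All 14 resident macrophage genes tested of a list of 15 fell, with a median of -3.60 against -0.02 over all genes. The gene without enough counts was Vsig4, at 0 in the 81 cells. The cells compared were chosen for and against Folr2, itself a resident marker, so the count describes the gate. Mrc1 was at 240, 501, 624 and 506 CPM, against 2561, 2305, 2204 and 2170 CPM in Folr2 macrophages (log2 fold change -2.22, SE 0.21). The hemoglobin receptor Cd163 (-3.60), the carbonyl reductase Cbr2 (-4.95) and the transglutaminase F13a1 (-3.80) fell with it. Of 10 general macrophage genes, Csf1r (-1.06) and Cd14 (-0.64) fell and the other 8 did not pass the threshold.

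Lipid genes rose far more often than they fell. Of 62 listed lipid genes, 43 were tested, 12 rose and 1 fell, with a median of 0.26. Among 12 uptake genes, 5 rose. Fabp5, a fatty acid carrier (chromosome 3, 10012548 to 10016607), was at 784, 248, 518 and 311 CPM, against 11.8, 13.3, 54.5 and 10.6 CPM in Folr2 macrophages (log2 fold change 4.42, SE 0.35, and 5.18 without replicate 1 at 4 °C). The cell with 23 Fscn1 UMIs held 42.6% of the Fabp5 UMIs in replicate 1 at 30 °C. In replicate 2 at 30 °C a single cell held 60.9%. Lpl, the lipoprotein lipase that frees fatty acids from triglycerides (chromosome 8, 68880491 to 68907448), was at 1285, 1739, 3165 and 3648 CPM, against 88.4, 122, 823 and 672 CPM (3.06, SE 0.28). Both were higher in the 81 cells in all 4 libraries. The lipoprotein receptor Lrp1 (1.1) and the scavenger receptor Cd36 (1.03) rose too, whereas the fatty acid carrier Fabp4 (0.03), named here after its value was seen, and 6 further uptake genes did not pass the threshold.

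Of 8 genes of lipid storage and hydrolysis, 4 rose and 0 fell, with a median of 1.02. These were the lysosomal acid lipase Lipa (1.74), the cholesterol esterifying enzyme Soat1 (1.66), the cholesterol ester hydrolase Nceh1 (1.38) and the lipid droplet coat Plin2 (1.24). Lipa was at 305, 490, 597 and 780 CPM, against 82.5, 136, 240 and 253 CPM in Folr2 macrophages, higher in every library. Of 11 genes of cholesterol transport, 3 rose, the sterol sensing receptor Nr1h3 (3.52, SE 0.52, and 4.66 without replicate 1 at 4 °C), the exporter Abcg1 (2.70) and the lysosomal carrier Npc2 (0.83). Apoe, the apolipoprotein that accepts cholesterol, fell by 0.81 and was at 5736, 6209, 4246 and 5844 CPM, against 12764, 10676, 9439 and 8692 CPM. None of 12 genes of fatty acid oxidation passed the threshold at an adjusted p of 0.05 in edgeR, and their median was 0.26. With cells that had any UMI of 6 further B and T cell genes (Cd3d, Cd79a and others) left out, which kept 38 of the 81 cells, Lpl (1.51), Cd36 (0.46), Lrp1 (0.75) and Plin2 (0.88) no longer passed.

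Lysosomal genes stood out beside them, with 10 of 22 tested higher, 1 lower and a median of 0.44. Ctsd, the aspartic protease cathepsin D (chromosome 7, 142375911 to 142388038), was at 2759, 1950, 2079 and 1979 CPM, against 390, 350, 365 and 288 CPM in Folr2 macrophages (log2 fold change 2.75, SE 0.13, adjusted p = 2.9e-08 from edgeR). The proton pump subunit Atp6v0d2 (2.94), cathepsin S (Ctss, 1.93) and the saposin precursor Psap (1.70) also rose, as did Ctsz, Ctsl, Cd63, Lamp1 and Ctsb. Ctsc fell by 1.06.

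**Figure D4:**
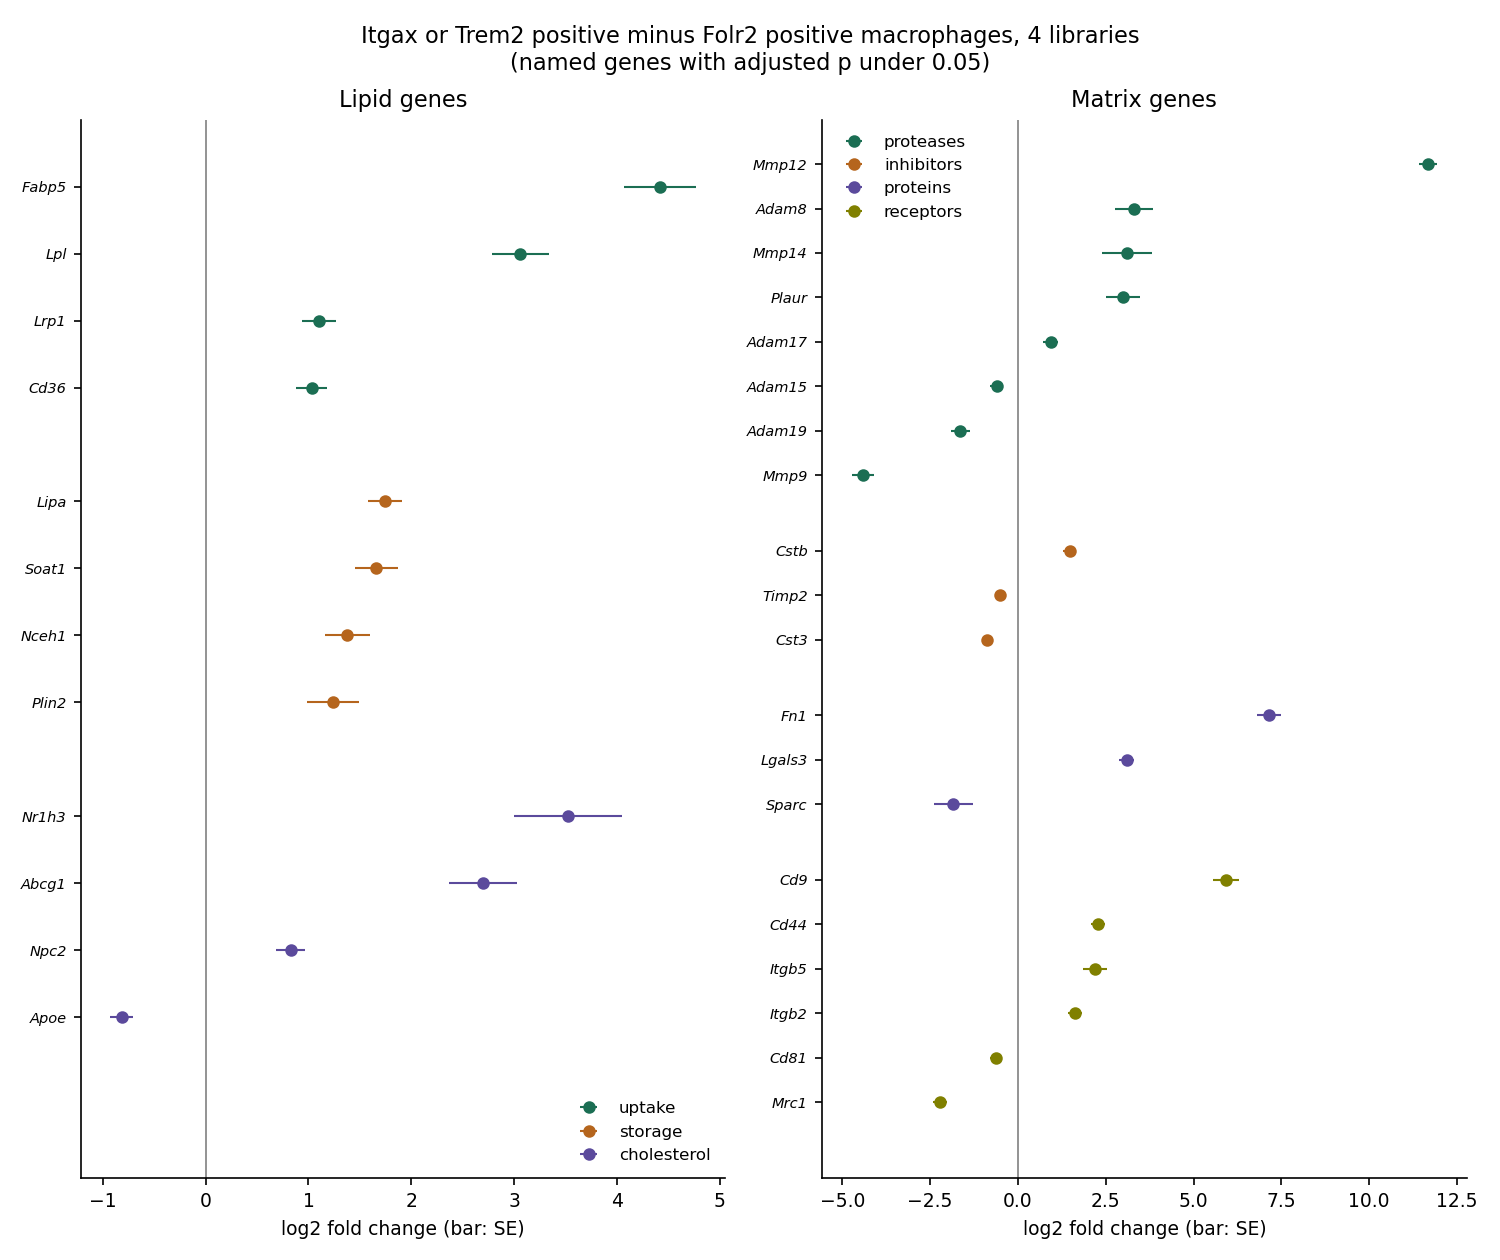
Log2 fold change between Itgax or Trem2 positive and Folr2 positive macrophages (edgeR, 4 libraries, bars are standard errors) for the genes named from the lipid lists (left) and matrix lists (right), all with an adjusted p under 0.05. The lipid genes lay to the right except Apoe, while matrix genes lay on both sides, and the position of Mmp12 rests on 3 UMIs in Folr2 macrophages.

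Matrix genes changed in both directions, 12 higher and 8 lower of 36 tested from 79 listed, with a median of 0.34. Of 11 proteases and their receptors, Mmp12, the sheddases Adam8 (3.31) and Adam17 (0.93), the membrane metalloproteinase Mmp14 (3.11) and the urokinase receptor Plaur (2.99) rose. The gelatinase Mmp9 fell, as did Adam19 (-1.64) and Adam15 (-0.61). Mmp9 (chromosome 2, 164940780 to 164955850) was at 7.26, 43.1, 31.6 and 7.22 CPM, against 502, 469, 650 and 698 CPM in Folr2 macrophages (log2 fold change -4.42, SE 0.31). Without replicate 2 at 30 °C, Mmp14 (2.21) and Adam17 (0.75) did not pass and the values of Plaur and Adam8 were 3.87 and 4.05, and without replicate 1 at 4 °C that of Adam8 was 2.46. Of 4 protease inhibitors, Cstb rose by a log2 fold change of 1.47 while Cst3 (-0.88) and Timp2 (-0.50) fell.

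Of 7 matrix proteins and lectins tested, Fn1 and Lgals3 rose and Sparc fell by 1.84. Lgals3 (chromosome 14, 47367751 to 47386160) was at 3478, 1971, 3017 and 3041 CPM, against 461, 466, 290 and 249 CPM (log2 fold change 3.1, SE 0.21). A single cell held 313 Lgals3 UMIs, 65.3% of those in replicate 1 at 30 °C. Of 14 matrix receptors, Cd9, the hyaluronan receptor Cd44 (2.28) and the integrin chains Itgb5 (2.20, and 2.88 without replicate 1 at 4 °C) and Itgb2 (1.62) rose, and Mrc1 and the tetraspanin Cd81 (-0.64) fell. Of 6 genes of TGF-beta signalling, Tgfbr1 and Skil rose and Tgfbr2 and Ski fell. The calls of Cd81, Sparc, Adam15 and Timp2 were lost with DESeq2 and in some fits with a library left out, with log2 fold changes then between -0.45 and -0.68 for Cd81 and between -1.56 and -2.08 for Sparc. Those of Adam15 lay between -0.51 and -0.67 and those of Timp2 between -0.41 and -0.62. Other cell filters also ended calls, with Adam15 then between -0.31 and -0.98 and Timp2 between -0.31 and -0.64. Adam17 (0.84) did not pass with cells with further B and T cell UMIs left out.

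Among the other lists, more glycolysis genes rose than fell, and more glucocorticoid targets fell than rose. Over all 6370 genes tested, 7.21% were higher and 6.26% lower, with a median of -0.02. The lists are short, so their counts are given as a description. Of 12 glycolysis genes, 7 rose, among them Pkm (1.24), Ldha (1.23) and Eno1 (1.14), and the regulator Pfkfb3 fell by 1.53. The list median was 0.86. Of 15 glucocorticoid targets, the kinase Sgk1 rose (1.59) and 7 fell, Ddit4 (-1.84), Fkbp5 (-1.20), Tsc22d3 (-1.12), Dusp1 (-0.40), Cd163, Cebpd and Errfi1, with a median of -0.98. Of 10 immediate early genes, Egr2 rose (1.92) and Jun (-1.65), Egr1, Jund and Ier2 fell, with a median of -0.34. Of 12 genes of heme and iron handling, the ferritin chains Fth1 (1.53) and Ftl1 (1.00), the metal transporter Slc11a1 (0.82) and Blvra rose and Cd163 and Tfrc fell. Of 16 chemokines, 5 rose, Ccl5 (3.08), Ccl3 (1.28), Ccl4 (1.14), Cxcl2 (0.94) and Cxcl16 (0.85), and 5 fell, Ccl8 (-3.61), Ccl7 (-2.73), Pf4 (-2.70), Ccl24 (-2.15) and Ccl12 (-2.13). Of 8 inflammatory cytokine genes, Il1b (1.69) and its antagonist Il1rn (2.96) rose and Il10 fell by 1.77. Of 9 genes for clearance of dead cells, Axl (1.67) and Cd300lb rose and Gas6, Stab1, Pros1 and Timd4 fell. The growth factor genes Gdf15 (3.02) and Pdgfb (1.52) rose, and Igf1 (-1.05) and Pdgfc fell. The MHC class II genes H2-Aa (-0.43) and H2-Ab1 (-0.42) fell, and the other 5 tested did not pass the threshold.

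Within the 81 cells the count of genes changed in the cold was low but depended on the fit. Of 2548 genes tested, 2 (0.0785%) passed an adjusted p of 0.05 in edgeR, both lower at 4 °C (0.0785%) and none higher (0%). An unadjusted p under 0.05 was found for 346, and the median log2 fold change was -0.01. DESeq2 called 12, 3 higher and 9 lower. Other settings also called genes both ways, 38 higher and 59 lower with no filter on low counts. With cells with further B and T cell UMIs left out, 11 were higher and 7 lower. The count was 146 or 90 without replicate 1 or 2 at 30 °C, 43 or 32 without replicate 1 or 2 at 4 °C, and 97 with no filter on low counts, and the 2 genes were called in each of these. Each fit with a library left out has a single library at 1 temperature, so its calls are not read as support. In 1156 genes (45.4%) the libraries of the temperatures did not overlap, so that an absence of overlap alone sets no gene apart.

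Fkbp5, a chaperone induced by glucocorticoids (chromosome 17, 28399094 to 28517527), reached 145 and 253 CPM in mice kept at 30 °C and only 7.90 and 7.22 CPM after cold. These were 20, 47, 4 and 1 UMIs, and both libraries at 4 °C lay below both at 30 °C. The log2 fold change was -4.70 (SE 0.53, adjusted p = 0.0293 from edgeR, the alternatives giving 5.0e-17 to 0.257). Fkbp5 was found in 80.0% and 80.0% of the cells at 30 °C and in 9.52% and 7.14% at 4 °C. In Folr2 macrophages it was at 497, 490, 20.6 and 10.6 CPM, and the difference between the changes was 0.10 (SE 0.88, adjusted p = 1). It was found in 41.1%, 37.0%, 8.39% and 8.36% of B cells, so lower values at 4 °C were not limited to macrophages. With cells with a UMI of 6 dendritic cell genes left out, which kept 58 of the 81 cells, the log2 fold change of Fkbp5 was -4.87 (adjusted p = 0.121), as large as with them but no longer past the threshold, and with all cells at equal depth the log2 fold change was -3.84. In cells with a Trem2 UMI it was -4.74 and in cells with an Itgax UMI -4.76, also as large but not past the threshold (adjusted p = 0.257 and 0.0987 from edgeR).

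Vcam1, an adhesion molecule that binds integrins (chromosome 3, 116109949 to 116129688), reached 929 and 1002 CPM in mice kept at 30 °C, against 138 and 202 CPM after cold. Both libraries at 4 °C lay below both at 30 °C. The log2 fold change was -2.64 (SE 0.26, adjusted p = 0.0214 from edgeR, 0.0214 being also the highest over the alternatives that gave it a value, which the fit on cells with a Trem2 UMI did not). In Folr2 macrophages it was at 1401, 1449, 166 and 273 CPM, and the difference between the changes was 0.25 (SE 0.27, adjusted p = 0.891). Vcam1 was found in 0.418% to 0.878% of B cells. With the cells with a dendritic cell UMI left out its log2 fold change was -5.37, and with those with further B and T cell UMIs left out it was -3.52.

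Of 12 glucocorticoid targets tested, Fkbp5 fell and 11 did not pass the threshold, which 2 of 2548 genes (0.0785%) passed over all genes tested. Of the 12, 1 had a log2 fold change above 0, against 49.2% of all genes tested, and the median was -1.27, against -0.01 over all genes. Tsc22d3, which encodes the leucine zipper GILZ, was at 450, 522, 138 and 79.5 CPM (log2 fold change -2.15, SE 0.32, adjusted p = 0.0563 from edgeR). Ddit4, an inhibitor of mTOR signalling, had 11 and 32 UMIs at 30 °C and 0 and 0 at 4 °C, at least 28.6-fold lower with a floor of 3 counts over both libraries (adjusted p = 0.0563). A single cell held 24 of the 32 Ddit4 UMIs in replicate 2 at 30 °C, so these values rest in large part on that cell. The temperatures did not overlap for either gene, as for 45.4% of all genes tested. The choice to name Tsc22d3 and Ddit4 was made with their values in view.

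No lipid gene passed the threshold in edgeR among 33 tested, of which 12 had a log2 fold change above 0, with a median of -0.18. Over all genes tested 2 of 2548 (0.0785%) passed, so no count of calls is read as a result about the lipid or matrix lists. Lpl, at 1285 and 1739 CPM without cold and 3165 and 3648 CPM with it, had a log2 fold change of 1.08 (SE 0.20, adjusted p = 0.124). The temperatures did not overlap, as for 45.4% of all genes, and Lpl was found in 40.0% and 66.7% of cells at 30 °C and 92.9% and 92.9% at 4 °C. Fabp5 (-0.34), Cd36 (0.45), Lipa (0.68), Plin2 (-0.53) and Abcg1 (-0.88) did not pass. Neither did Hilpda, with 39 UMIs at 30 °C and 5 at 4 °C, 15.5-fold lower in the cold (95% counting interval 6.12 to 50.5). This interval, like that of Spp1 below, pools UMIs over libraries and leaves out the spread between cells and libraries. Of 28 matrix genes tested, Vcam1 fell and the other 27 did not pass, with a median of 0.02. Mmp12 overlapped between temperatures and had a log2 fold change of -0.95 (SE 0.94, adjusted p = 0.727). A single cell held 606 Mmp12 UMIs, 70.2% of those in replicate 1 at 30 °C. Replicate 2 at 30 °C lay below both libraries at 4 °C, so no direction is read for Mmp12. The log2 fold changes of Lgals3, Fn1 and Cd9 were 0.07, 0.63 and 0.44. For Lgals3, a single cell held 65.3% of the UMIs in replicate 1 at 30 °C. Spp1, which encodes osteopontin, had 1 and 2 UMIs at 30 °C and 34 and 46 at 4 °C (a ratio of 13.4 with a 95% counting interval of 4.42 to 66.3, adjusted p = 0.278 from edgeR), but was found in 10.0% and 13.3% of cells at 30 °C and 11.9% and 14.3% at 4 °C, and had 0 UMIs in Folr2 macrophages.

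**Figure D5:**
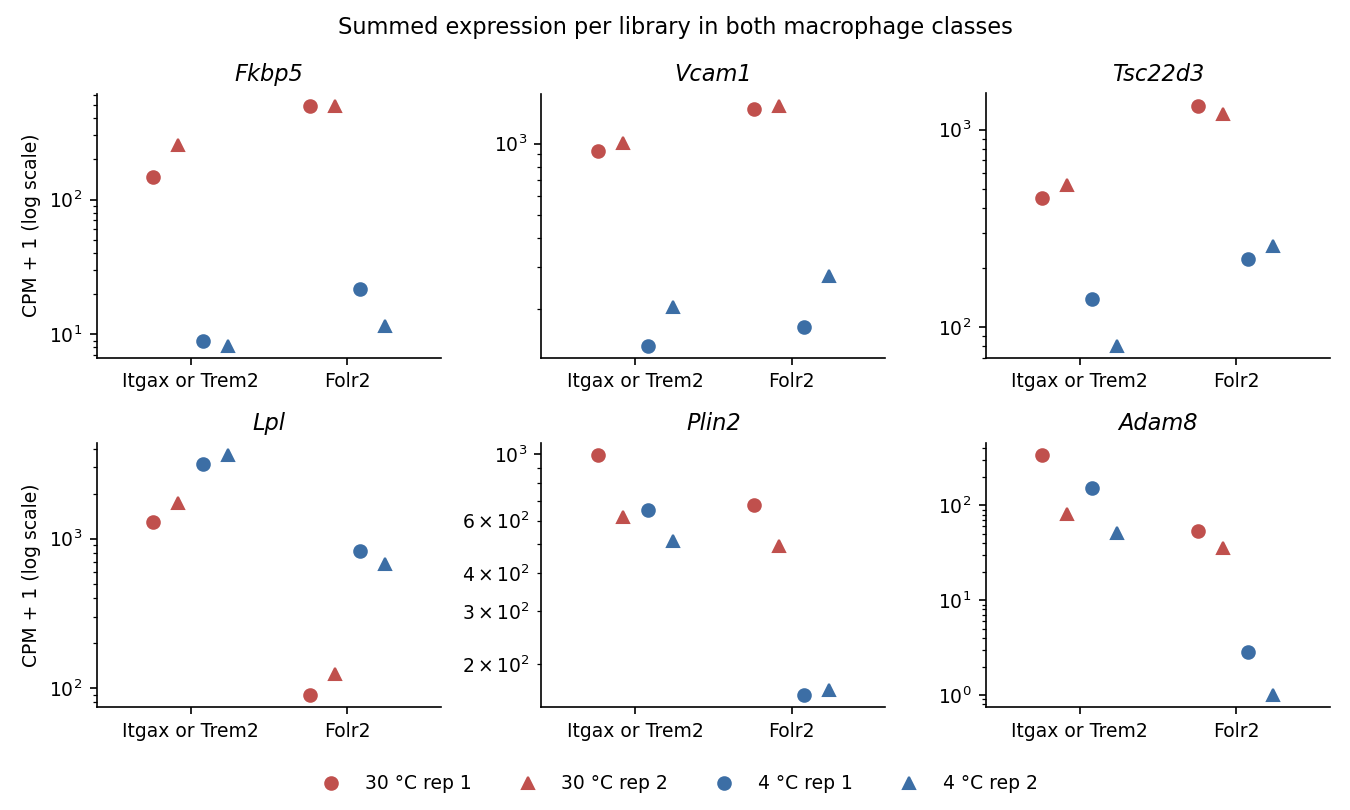
CPM plus 1 (log axis) of 6 genes in each library, summed over Itgax or Trem2 positive and over Folr2 positive macrophages. Fkbp5 and Vcam1 lay lower at 4 °C in both classes, Lpl lay higher at 4 °C in both, and Plin2 and Adam8 overlapped between temperatures in Itgax or Trem2 positive macrophages but not in Folr2 macrophages.

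Whether the change at 4 °C differed between the classes was tested directly, as the interaction of class and temperature with library as a factor. Of 7360 genes, 20 (0.272%) passed an adjusted p of 0.05 in edgeR, 13 with a more positive and 7 with a more negative change in Itgax or Trem2 positive macrophages. Of these 20, 19 also passed in Folr2 macrophages, where 1453 of 7835 genes (18.5%) did, and 0 in the 81 cells, where 2 of 2548 did. The 20 were chosen for a difference that includes the change in Folr2 macrophages, so nothing is read from these counts. In 6 the changes had opposite signs. Lpl was among the genes with a more negative difference (-1.63, SE 0.24, adjusted p = 0.00273), with a log2 fold change of 2.78 in Folr2 macrophages. Plin2 differed by 1.47 (SE 0.28, adjusted p = 0.0269). Without replicate 1 or 2 at 4 °C neither Lpl (-1.41 and -1.86) nor Plin2 (1.21 and 1.66) passed, and neither did with at least 3 UMIs of Lyz2 and of C1q required (-1.27 and 1.2). Plin2 also did not pass in DESeq2 (1.44) or with cells with dendritic cell UMIs left out (1.34). With cells with further B and T cell UMIs left out, the difference of Lpl reversed to 3.12 (adjusted p = 0.00288) and that of Plin2 was 2.44, so the direction for Lpl depends on which cells were kept. Plin2 was at 995, 614, 650 and 513 CPM in the 81 cells, where the temperatures overlapped, and at 674, 493, 156 and 162 CPM in Folr2 macrophages, where they did not, as for 57% of all genes tested there. Adam8 differed by 4.22 (SE 0.71) and was at 341, 80.8, 150 and 50.6 CPM in the 81 cells, against 53.1, 34.7, 1.88 and 0 CPM.

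Genes of chemokine signalling were also among the 20. Ccr2, the receptor that brings monocytes to tissue, was at 131, 431, 573 and 318 CPM in the 81 cells and at 17.7, 38.8, 578 and 545 CPM in Folr2 macrophages, a difference in change of -3.58 (SE 0.38, adjusted p = 2.2e-04). Cxcl10 differed by -4.94 and Cxcr4 by 2.37. Cxcr4 stayed between 123 and 196 CPM in the 81 cells, while in Folr2 macrophages it went from 183 and 226 CPM without cold to 33.8 and 33.4 CPM with it. Leaving out replicate 1 or 2 at 30 °C gave 84 or 95 such genes, and leaving out replicate 1 or 2 at 4 °C gave 13 or 2. Without replicate 2 at 4 °C the difference of Ccr2 still passed, while those of Cxcr4 (2.51), Cxcl10 (-4.28) and Adam8 (4.16) did not, and those of Cxcr4 (2.05) and Adam8 (5.52) did not pass without replicate 1 at 4 °C either. Leaving out replicate 1 at 30 °C gave -2.91 for Cxcl10 and 5.12 for Adam8, and leaving out replicate 2 gave -10.67 for Cxcl10. With cells with further B and T cell UMIs left out, Ccr2 (-1.37) did not pass, nor did it with cells with dendritic cell UMIs left out (-2.99). Cxcr4 did not pass under either of these (1.31 and 1.90) or in DESeq2 (2.30), Adam8 did not pass with the dendritic cell UMIs left out (4.00, adjusted p = 0.0597), and Cxcl10 did not pass in DESeq2 (-6.00).

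Chat, the gene whose regulatory sequences drive the reporter (chromosome 14, 32408203 to 32465989), was found in 7 of the 81 cells (8.64%), 6.34% of Folr2 macrophages and 36.5% of B cells, at the median depths given above. It had 2, 1, 12 and 4 UMIs per library, or 14.5, 5.39, 23.7 and 28.9 CPM. Both libraries at 4 °C lay above both at 30 °C, but 10 of the 12 UMIs in replicate 1 at 4 °C came from a single cell, and Chat had too few counts to be tested here. That cell had 16 UMIs of the dendritic cell genes, 7 of them of Fscn1, beside 56 C1q UMIs and 48 of the macrophage genes.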

How the data were processed

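UMI counts per gene and cell in 4 libraries (31053 genes) were deposited by the authors as unnormalized counts, made with STAR and Cell Ranger on mm10 (3.0.0 in the file headers, 3.1.0 in the submitters' processing notes, which also list Seurat 4.2.0). Here, cells were kept if their gene number lay above 200 and below 5000 and mitochondrial UMIs were under 7.5%, giving 5190 and 5388 cells at 30 °C and 5326 and 5345 at 4 °C from 76058112, 84317319, 80973104 and 84468931 deposited UMIs. UMIs were summed per library over the cells of each class, since cells of 1 library are not replicates, and tested in edgeR 4.0.16 (R 4.3.3, TMM, filterByExpr, quasi-likelihood test, Benjamini-Hochberg adjustment over all genes tested, threshold 0.05). All adjusted p values of single genes are from edgeR unless DESeq2 1.42.0 is named. The labels call the libraries biological replicates, and p values measure only the spread between them. Shares were compared by exact permutation tests (scipy 1.17.1), and doublets scored with Scrublet in scanpy 1.11.5. Counting intervals of ratios were taken on UMIs pooled over libraries and do not cover the spread between cells or libraries. Each test was also run on simulated counts, and no outcome of those runs is used here.

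Members, lists and tests were chosen with earlier results of these data known. Genes named were the 10 largest changes each way past the threshold (5 for the other 2 comparisons) with the same direction in every library comparison and at least 50 UMIs, list members past the threshold, the genes of the gate, the markers and Chat. Other genes named, those not past the threshold among them, were chosen after their values were seen. Alternatives were other cell filters, Scrublet, stricter gates, other normalization, DESeq2, other count filters, a replicate block, equal depth, and each library left out. The listed gene Clec7a was not found in the files by that symbol. Positions are from GENCODE M21 on mm10. Flow cytometry and imaging were not used here, and some list members and 1 gene whose change differed are counted but not reported by name.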

Additional observations from a re-analysis of the deposited data

Results flagged for a closer look

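The change at 4 °C differed between Itgax or Trem2 positive and Folr2 positive macrophages, by a test of the difference itself, for 20 genes, of which 19 are given. The values are log2 fold changes in the former minus those in the latter. They were 4.27 for Jchain, 4.22 for Adam8, 2.59 for Fam117b, 2.37 for Cxcr4, 2.00 for Pdxk, 1.99 for Ccl9, 1.95 for Gda, 1.67 for Cebpb, 1.6 for Mt1, 1.48 for Rgs1, 1.47 for Plin2, 1.44 for Ccl6 and 1.39 for Ucp2. The negative values were -4.94 for Cxcl10, -3.65 for Il18bp, -3.58 for Ccr2, -2.90 for Pla2g2d, -2.51 for Ccr1 and -1.63 for Lpl. That of Pla2g2d did not pass with dendritic cell UMIs excluded (-1.78) or without replicate 2 at 4 °C (-2.40), and was -6.70 with B and T cell UMIs excluded, -3.53 and -1.97 without replicates 1 or 2 at 30 °C and -4.35 without replicate 1 at 4 °C. Without replicate 2 at 4 °C, 2 of the 20 genes passed, Ccl9 and Ccr2. Without replicate 1 at 4 °C, Adam8, Fam117b, Cxcr4, Pdxk, Gda, Cebpb, Plin2, Ucp2, Il18bp, Ccr1 and Lpl did not pass. In DESeq2, Fam117b, Cxcr4, Pdxk, Gda, Mt1, Rgs1, Plin2, Ccl6, Ucp2, Cxcl10 and Ccr1 did not pass and Il18bp had no adjusted p. With DESeq2 size factors in edgeR, Fam117b, Pdxk, Gda, Rgs1, Il18bp and Ccr1 did not pass. With dendritic cell UMIs excluded, Adam8, Fam117b, Cxcr4, Pdxk, Cebpb, Mt1, Rgs1, Plin2, Ccl6, Ucp2, Il18bp, Ccr2 and Ccr1 did not pass either. With B and T cell UMIs excluded, Jchain, Fam117b, Cxcr4, Pdxk, Rgs1, Ccl6 and Ccr2 did not pass, Lpl and Ccr1 reversed, and Cebpb and Gda were at 3.08 and 3.47. With at least 3 UMIs of Lyz2 and of C1q, Fam117b, Pdxk, Gda, Rgs1, Plin2, Ccl6 and Lpl did not pass. Ccr1 also did not pass with no upper limit on genes. Ccl9 passed under each alternative, with adjusted p values in edgeR or DESeq2 up to 0.0472.

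Jchain, a gene of plasma cells, had 1600 of its UMIs in Folr2 macrophages of replicate 2 at 30 °C, against 71, 94 and 50 in the other libraries, and Igha was at 4682 CPM there against 119, 54.5 and 111 CPM. Without that library its difference was 1.90 and did not pass the threshold. For Cxcl10, 1 of 10 cells in replicate 1 at 30 °C held all 36 UMIs of that library. The part of plasma cell RNA and of single cells in these values was not tested.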

How the results depend on the processing

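Of 1098 values of 82 results for single genes under the alternatives, 942 kept their direction and side of the threshold, 153 lost the call and 3 reversed. These were differences in change, that of Jchain (-1.71 without the upper gene limit) and those of Lpl (3.12) and Ccr1 (1.08) with no further B and T cell UMI. The 2 genes changed at 4 °C were 8 with a mitochondrial limit of 15%, 7 with no upper limit on genes, 9 with at least 3 UMIs of Lyz2 and of C1q, 18 with no further B and T cell UMI, 1 with no dendritic cell UMI, 8 with DESeq2 size factors, 12 with DESeq2, 97 with no filter on low counts, 8 with at least 10 UMIs, 0 in cells with a Trem2 UMI (120 at an unadjusted p under 0.05 in edgeR), 1 in cells with an Itgax UMI and 32 to 146 with 1 library left out. Each fit of the change at 4 °C with a library left out has a single library at 1 temperature, so its calls are not read as support. The 858 genes that differed from Folr2 macrophages were 299 with no further B and T cell UMI, 560 with DESeq2, and 539 to 710 with 1 library left out, 539 being without replicate 1 at 4 °C. The 20 genes whose change differed were 52 with the mitochondrial limit of 15%, 39 with no further B and T cell UMI, 6 with no dendritic cell UMI, 9 with DESeq2, 75 with no filter and 2 to 95 with 1 library left out. The 10 genes that differed between Trem2-only and Itgax-only cells were 16 with no upper limit on genes, 4 with no further B and T cell UMI, 1 with no dendritic cell UMI, 55 with no filter and 1 to 26 with 1 library left out. The cause of these shifts was not tested, though the stricter gates also left fewer cells (38 and 58 of 81 with no B and T cell or dendritic cell UMI). The differences in share lay between 0.0264 and 0.553 percentage points of kept cells and between 1.04 and 3.56 of macrophages with 1 library left out. A replicate block gave 3 genes at 4 °C in place of 2. Deviations of same-numbered libraries correlated at 0.077 over 2554 genes, a single value that does not show whether a number stands for a shared day or batch, and the labels name none. The sums came from 10 to 42 cells per library, and from 3 to 17 for Trem2-only and Itgax-only cells.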
